A study of Homo sapiens with 9 samples.

Results

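The genes described here encode splicing factors and the proteins of small nuclear ribonucleoprotein particles (snRNPs). They were chosen by name: every protein-coding gene whose symbol begins with SNRP, SF3A, SF3B, LSM, PRPF, U2AF, SRSF or HNRNP was taken, which gave 92 of the 57338 genes of the table. Of these, 8 encode proteins of the Sm ring, 4 are other proteins of the U1 and U2 particles, 13 are LSm genes, 9 are subunits of SF3A and SF3B, 4 belong to the U2AF family, 13 are PRPF genes, 12 are SR protein genes and 27 are hnRNP genes. The remaining 2, LSMEM1 and LSMEM2, encode membrane proteins that share only the first letters of the name and were left out of the classes.

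The cells were HEK293T, a human embryonic kidney line. They received a plasmid that expresses either EGFP on its own (empty vector) or EGFP joined to human protamine 1 (hPRM1) or human protamine 2 (hPRM2), and live cells with high EGFP were sorted 3 days later. Each group had 3 libraries, made from total RNA with a kit that reads the 3′ ends of polyadenylated transcripts. By the labels, all 3 groups carried an EGFP plasmid and were sorted. The labels do not say whether the 3 libraries of a group came from separate cultures, so p-values measure only the spread between these libraries.

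Introns are removed by the spliceosome, which assembles on each transcript from the U1, U2, U4, U5 and U6 snRNPs. In most of these particles a ring of Sm proteins is closed around the small nuclear RNA, whereas U6 carries a ring of LSm proteins. U2AF binds the 3′ splice site and helps to recruit U2, the SF3A and SF3B complexes hold U2 on the branch point, and PRPF proteins build the tri-snRNP and drive the steps to catalysis. SR proteins and hnRNP proteins bind the transcript itself and influence which splice sites are used, SR proteins mostly as activators and hnRNP proteins often as repressors.

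The libraries labelled hPRM1 went against their label and stand apart from the other 6. PRM1 was listed at 0 in all 9 libraries, while PRM2 was at 36130 to 71224 RPKM (reads scaled by library total and gene length) in the hPRM2 libraries and at 0 elsewhere. The 10 haemoglobin and red cell markers summed to between 2060293 and 2266475 RPKM in the libraries labelled hPRM1, against 8.14 to 32.6 in empty vector and 9.91 to 16.7 in hPRM2, and 9 of the 10 were above 0 in all 3 of those libraries. The 10 white blood cell markers summed to between 6735 and 7903 RPKM there, against at most 5.52 elsewhere, and all 10 were above 0 in each library. The 10 markers of HEK293T cells summed to at most 1.76 RPKM there, with 7 at 0 in all 3, against 136 to 192 in empty vector and 94.6 to 124 in hPRM2. HBB was listed at 0 in all 6 empty vector and hPRM2 libraries, and the HEK293T marker DLK1 was at 0 in all 9. In bulk RNA, fewer cells of a type and less RNA per cell cannot be told apart. The library names of these 3 samples carry a separate run of numbers from those of the other 6, and whether this marks a batch is not stated, so that a batch and the condition could not be separated either. The wording "the libraries labelled hPRM1" is therefore used throughout.

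In empty vector cells the splicing genes spanned a wide range of levels. These are RPKM values of 3′-end reads divided by gene length, so short genes read higher than they would per molecule, and levels are compared between genes only on this scale. SNRPD2, which encodes SmD2, was highest with 2634.5, 2761 and 3495 RPKM. U2AF1L5 and PRPF8, which encodes the large U5 protein at the catalytic centre, followed with means of 1563 ± 79.3 and 1364 ± 188 RPKM (SD, n = 3), and their 3 values overlap. The class medians over single libraries were 1022 to 1152 RPKM for the Sm ring without SNRPN, 305 to 331 for the other U1 and U2 proteins, 96.6 to 162 for SR genes and 29.9 to 40.1 for PRPF genes. SF3B1, the branch point subunit of SF3B, was at only 35.2, 38.8 and 36.1 RPKM. Between replicates the tested members varied by a median SD of 0.23 on the log2(RPKM + 1) scale in empty vector, 0.27 in the libraries labelled hPRM1 and 0.63 in hPRM2. The number of reads on genes was estimated from the most frequent value after scaling by length, taken as 1 read. It used genes with 1 annotated transcript, with 81 to 403 values in the peak of a library. The estimate ran from 7890000 to 10740000 in empty vector, from 4200000 to 5850000 in the libraries labelled hPRM1 and from 1270000 to 2640000 in hPRM2. By this estimate the hPRM2 libraries held the fewest reads on genes. The authors reported all reads in another order, with fewer for hPRM1 than for hPRM2 and the most for the controls. The difference was not resolved here. The reads behind a single value also scale with its RPKM, and most members had far lower RPKM in the libraries labelled hPRM1. A lower depth of hPRM2 would therefore not mean the fewest reads per gene.

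The promoters of 5 of these genes are shown because the genes lie at the ends of the comparison below. SNRPE, SNRPB and SF3B6 were lower in the libraries labelled hPRM1, and SRSF5 and HNRNPUL2 did not pass the test there. Each stretch is the 100 bases before the RefSeq start of the gene on GRCh38.p14, read 5′ to 3′ on the strand of the gene, at chr1:203861747-203861846 (+) for SNRPE, chr20:2470790-2470889 (-) for SNRPB, chr2:24076327-24076426 (-) for SF3B6, chr14:69767042-69767141 (+) for SRSF5 and chr11:62727458-62727557 (-) for HNRNPUL2. Capitals mark the ETS core CCGGAAG or the GC box GGGCGG on either strand.
SNRPE: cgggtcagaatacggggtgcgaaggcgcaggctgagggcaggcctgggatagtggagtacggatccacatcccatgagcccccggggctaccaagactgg
SNRPB: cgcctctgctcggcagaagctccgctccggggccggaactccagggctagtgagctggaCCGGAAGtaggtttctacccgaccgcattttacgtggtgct
SF3B6: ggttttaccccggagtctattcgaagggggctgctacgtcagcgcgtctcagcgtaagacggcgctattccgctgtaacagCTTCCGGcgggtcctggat
SRSF5: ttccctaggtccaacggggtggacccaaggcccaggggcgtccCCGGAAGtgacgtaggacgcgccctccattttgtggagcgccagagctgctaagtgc
HNRNPUL2: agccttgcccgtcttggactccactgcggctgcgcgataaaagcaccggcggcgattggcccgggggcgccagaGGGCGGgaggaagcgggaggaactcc

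The ETS core was present in SNRPB and SF3B6, which fell, and in SRSF5, which did not. SNRPE had it outside the stretch printed, within the window of 300 bases around its start. Over the 104 such windows of the 78 members found in the RefSeq table, 25% held CCGGAAG on either strand, against 10.3% of all 35116 windows. By class the windows with it numbered 6 of 9 for SF3, 6 of 15 for the Sm ring, 3 of 4 for the other U1 and U2 proteins, and 3 of 35 for hnRNP genes. The GC box, which does not overlap the ETS core, was in 52.9% of the members' windows and in 44.95% of all windows. Some genes have several windows, and these are matches of letters, not binding sites. SNRPD1, SNRPN and the other members have no sequence printed here.

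Against empty vector, the libraries labelled hPRM1 held less of nearly every splicing gene. Of the 85 members tested, 77 were lower and 1 was higher, while over all 13588 genes tested 62.5% were called lower and 12.9% higher. A gene was tested when 3 of the 6 libraries reached an RPKM of 1. LSM3, LSM11, SRSF12 and HNRNPA1L3, counted as lower, passed this filter only through empty vector, so their direction was fixed by it. SNRPN, the 1 counted as higher, passed it only through the libraries labelled hPRM1. A call needed an adjusted p of at most 0.05 and a change of at least 2-fold in limma on log2(RPKM + 1). The median difference was -2.61 over the members and -1.72 over all tested genes on this scale, and 71 of the 85 members lay below the median of all genes. The level of the whole comparison depends on the scaling: with median-of-ratios rescaling the median of all tested genes was 0.14 and that of the members was -0.31, with 27 members lower (25.1% of all genes) and 12 higher (32.6% of all genes). Median-of-ratios rescaling divides each library by its median ratio to the average library over genes above 0 in all 9. With quantile normalization, which gives all libraries one distribution, 42 members were lower (34.7% of all genes) and 5 higher (25.6% of all genes). The haemoglobin and white cell markers given above moved with this comparison, and their part in it was not tested. The 7 members not tested were HNRNPCL1, HNRNPCL2, HNRNPCL3, HNRNPCL4, the read-through gene HNRNPUL2-BSCL2, LSMEM1 and LSMEM2, none of which reached an RPKM of 1 in 3 of the 6 libraries.

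The class medians were spread widely. The median difference was -5.41 for the Sm ring (-6.39 without SNRPN), -3.71 for the other U1 and U2 proteins and -3.58 for LSm genes. It was -2.59 for SR genes, -2.52 for hnRNP genes, -2.47 for SF3, -2.27 for PRPF genes and -2.20 for U2AF. Measured from the median of all tested genes, the Sm ring lay at -3.69, and at -3.13 with median-of-ratios rescaling. Without SNRPN these were -4.67 and -4.04. The other U1 and U2 proteins lay at -1.99 and -1.41 and the LSm genes at -1.86 and -1.43 in the same order. The remaining classes were close to the median of all genes after rescaling: SF3 was at -0.22, PRPF and hnRNP genes at -0.19, SR genes at -0.30 and U2AF at 0.03. These medians are descriptions and were not tested against each other. Across the 85 members the difference fell with the level in empty vector (Spearman rho = -0.58), and it did so over all 11754 tested protein-coding genes (rho = -0.62). The difference and the level share the empty vector values. Tested protein-coding genes in the empty vector level range of a class had a median of -3.38 for the Sm ring without SNRPN. The median was -3.29 for the range of the other U1 and U2 proteins, -2.40 for LSm and -2.97 for SF3. It was -2.42 for SR, -1.98 for hnRNP, -2.53 for PRPF and -2.74 for U2AF. Beside these, the U1 and U2 proteins were closer than beside all genes. The SF3, PRPF and U2AF medians were the higher of their pairs, and those of the other classes the lower. The rho of the difference with median transcript length was 0.32 over the members and 0.07 over the protein-coding genes. This length is the median over all annotated transcripts of a gene, such as 698 bases for PRPF8. It need not be that of the main transcript.

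**Figure D1:**
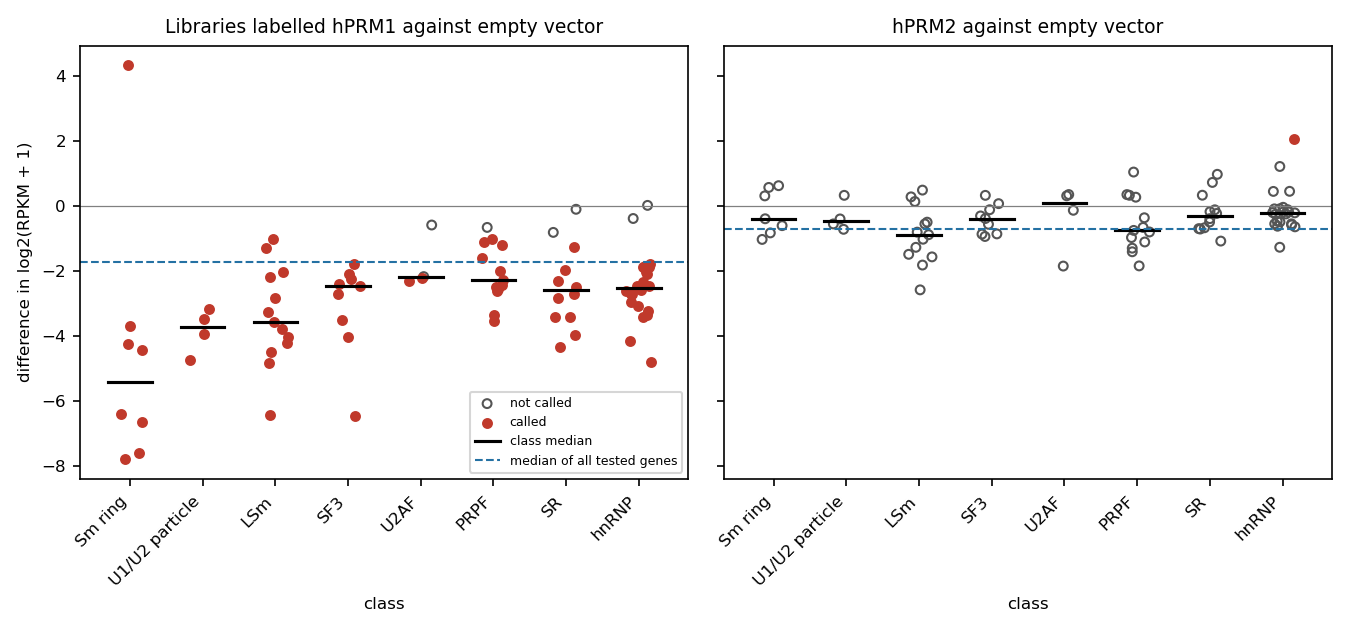
Difference in log2(RPKM + 1) from empty vector for each tested splicing gene, by class, for the libraries labelled hPRM1 (left) and for hPRM2 (right), with filled points for called genes, bars for class medians and a dashed line for the median of all tested genes. On the left the Sm ring median, SNRPN included, is -5.41 against -1.72 for all genes. SNRPN, whose direction was fixed by the filter on low values, stands alone at a fitted 4.33. On the right the single called point is HNRNPUL1 at 2.05.

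The Sm ring held the 3 largest falls, those of SNRPE, SNRPG and SNRPD1. SNRPE, which encodes SmE, had 1134.5, 1022 and 1152 RPKM in empty vector and 10.2, 1.72 and 3.04 RPKM in the libraries labelled hPRM1. It fell by 7.79 ± 0.50 (SE) on the log2 scale (adjusted p = 1.87e-05). SNRPD1 (SmD1) went from 1240.4, 1056 and 932 RPKM to 9.51, 11.5 and 8.48 RPKM, a difference of -6.63 ± 0.19 (adjusted p = 2.46e-06). The groups of both genes lay far apart, with no empty vector value under 932 and no value above 11.5 in the libraries labelled hPRM1. The 7 ring genes other than SNRPN did not fall equally, with differences from -7.79 to -3.68. The smallest was that of SNRPB (SmB), which had 911, 1004 and 1166 RPKM in empty vector and 52.5, 96.7 and 95.9 RPKM in the libraries labelled hPRM1. All 7 remained called lower with median-of-ratios rescaling, where their median was -3.90.

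The proportions within the ring were therefore different, which no scaling of a library can change. SNRPG (SmG) stood to SNRPB at 1.33, 1.26 and 1.09 in empty vector and at 1.91, 1.81 and 1.99 in hPRM2. In the 3 libraries labelled hPRM1 this ratio was 0.156, 0.0488 and 0.0442. SNRPD2 was the highest of the ring in all 6 empty vector and hPRM2 libraries, and SNRPB was the highest in all 3 libraries labelled hPRM1. The ratios named in this and the following paragraphs were chosen after their values had been seen.

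SNRPN was the only member that was higher. It encodes SmN, a close paralog of SmB that takes its place in the ring and is known from neurons, and it is an imprinted gene. SNRPN was listed at 0 in all 6 empty vector and hPRM2 libraries and had 12.7, 23.6 and 23.1 RPKM in the libraries labelled hPRM1. It passed the filter on low values only through these libraries, so that its call was fixed by the filter and no fold or p is given. Of the summed RPKM of SNRPN and SNRPB, SNRPN held 19.5%, 19.6% and 19.4% in the 3 libraries labelled hPRM1. The overlapping gene SNURF was listed at 0 in all 9 libraries, and reads of SNRPN, SNURF and the similar SNRPB may not be fully separable.

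The other proteins of the U1 and U2 particles all fell. SNRPA1, a protein specific to U2, went from 833, 942 and 739 RPKM to 28.0, 28.7 and 33.7 RPKM, a difference of -4.75 ± 0.17 (adjusted p = 3.49e-06). SNRPB2, its partner in U2, showed the smallest difference of the 4, -3.18 ± 0.15 (adjusted p = 5.8e-06), and was below 2-fold after median-of-ratios rescaling. SNRPC and SNRPA, both of U1, lay between them at -3.95 and -3.48.

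All 13 LSm genes were called lower, LSM3 and LSM11 after passing the filter on low values only through empty vector. LSM2 to LSM7 are shared by the nuclear ring on U6, closed by LSM8, and by the cytoplasmic ring that acts in mRNA decay, closed by LSM1. LSM5 went from 221, 187 and 205 RPKM to 2.85, 0.911 and 0.858 RPKM, a difference of -6.42 ± 0.32 (adjusted p = 7.81e-06). LSM3 followed with -4.82 ± 0.20, its direction fixed by the filter. LSM1 and LSM8 differed by -4.49 and -4.23, and their ratio overlapped between the groups, with LSM8 at 1.02, 0.818 and 1.49 times LSM1 in empty vector and at 1.03, 2.64 and 1.05 times in the libraries labelled hPRM1. LSM14B, which belongs to neither ring and acts in messenger ribonucleoprotein granules, fell the least. It had 9.83, 14.1 and 13.8 RPKM against 6.23, 6.61 and 4.16 RPKM (-1.03 ± 0.26, adjusted p = 0.00847), and its call was lost at a pseudocount of 5, with all 9 libraries in the fit and without empty vector replicate 2 or 3 or hPRM1 replicate 3. LSM14A and LSM10, which belongs to the U7 particle of histone mRNA processing, were at -1.28 and -2.04. LSM14A and LSM14B were instead called higher with median-of-ratios rescaling, at 1.11 and 1.22.

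Among the 9 SF3 genes, all called lower, SF3B6 stood apart. SF3B6, the subunit that contacts the branch point adenosine, had 548, 447 and 431 RPKM in empty vector and 3.28, 5.02 and 5.15 RPKM in the libraries labelled hPRM1. Its difference was -6.45 ± 0.22 (adjusted p = 3.29e-06). SF3B1 went from 35.2, 38.8 and 36.1 RPKM to 5.42, 6.40 and 6.46 RPKM, a difference of -2.41 ± 0.18 (adjusted p = 3.49e-05) that was -0.08 after median-of-ratios rescaling. SF3B6 stood at 11.5 to 15.6 times SF3B1 in empty vector, at 14.0 to 17.7 times in hPRM2 and at 0.605 to 0.797 times in the libraries labelled hPRM1. SF3A1 changed least, from 50.5, 50.5 and 47.4 RPKM to 14.4, 13.3 and 12.8 RPKM (-1.80 ± 0.17, adjusted p = 8.65e-05), and was at 0.61 after rescaling.

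In the U2AF family the reads are hard to assign. U2AF1L5 is a near-identical copy of U2AF1, both on chromosome 21 of GRCh38, and the copy took most of the reads. U2AF1L5 had 1599.6, 1617 and 1472 RPKM in empty vector and 279, 348 and 319 RPKM in the libraries labelled hPRM1 (-2.31 ± 0.14, adjusted p = 1.6e-05). U2AF1 itself had 148, 83.6 and 3.89 RPKM in empty vector, which was 8.46%, 4.91% and 0.264% of the sum of both, and its difference of -2.18 ± 1.22 did not pass the test. Without empty vector replicate 3 it was called lower at -3.68. Their sum was 1641 ± 145 RPKM in empty vector, 323 ± 32.9 in the libraries labelled hPRM1 and 1991 ± 177 in hPRM2 (SD, n = 3). U2AF2, the large subunit, was lower by -2.23 ± 0.25, and U2AF1L4, a paralog of the small subunit, had overlapping groups (13.6, 11.8 and 20.8 RPKM against 7.44, 13.3 and 8.97 RPKM).

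Of the 13 PRPF genes, 12 were called lower. PRPF4, a protein of the U4/U6 particle, differed most, from 34.7, 40.1 and 33.3 RPKM to 1.09, 2.89 and 3.04 RPKM (-3.53 ± 0.31, adjusted p = 6.03e-05). PRPF8 went from 1178.5, 1358 and 1555 RPKM to 189, 301 and 210.1 RPKM (-2.56 ± 0.22, adjusted p = 5.77e-05). PRPF8 stayed at 32.5 to 47.1 times SF3B1 in the libraries labelled hPRM1, which overlaps the 33.5 to 43.1 times of empty vector. In hPRM2 it stood at 41.8, 11.8 and 23.4 times, with replicates 2 and 3 below the empty vector range. PRPF38B, a factor of spliceosome activation, was not called: it had 61.9, 80.1 and 29.9 RPKM against 31.9, 34.7 and 32.9 RPKM, and the low value of empty vector replicate 3 made the groups overlap. Without that library it was called lower at -1.07. After median-of-ratios rescaling, PRPF38B, PRPF18, PRPF4B and PRPF6 were called higher, at 1.24 to 1.79.

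Of the 12 SR genes, 10 were called lower, and SRSF5 and SRSF8 were the exceptions. SRSF7 fell by 4.35 ± 0.23 on the log2 scale, from 461, 441 and 438 RPKM to 27.2, 22.1 and 15.2 RPKM (adjusted p = 9.88e-06). SRSF5 had 77.3, 108 and 54.2 RPKM in empty vector and 45.2, 109.9 and 72.8 RPKM in the libraries labelled hPRM1, and the groups overlapped (-0.10 ± 0.39, adjusted p = 0.815). Relative to SRSF3, another SR protein, SRSF5 stood at 0.373 to 0.571 in empty vector, 0.642 to 1.54 in hPRM2 and 5.60 to 8.95 in the libraries labelled hPRM1. SRSF12 was listed at 0 in all 3 libraries labelled hPRM1 and at 5.27 to 7.80 RPKM in empty vector. SRSF8 was lower in every library labelled hPRM1, but by less than 2-fold (-0.82 ± 0.31, adjusted p = 0.0442). SRSF5, SRSF8 and SRSF11 were called higher after median-of-ratios rescaling, at 2.37, 1.43 and 1.23.

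Of the 22 hnRNP genes tested, 20 were called lower. HNRNPAB fell the most, from 339, 309 and 319 RPKM to 9.40, 10.2 and 12.5 RPKM (-4.80 ± 0.18, adjusted p = 3.72e-06). HNRNPA1, a repressor that binds silencer elements in exons and introns, went from 539, 539 and 475 RPKM to 54.8, 72.5 and 40.7 RPKM (-3.22 ± 0.23, adjusted p = 2.91e-05). After median-of-ratios rescaling HNRNPA1 differed by less than 2-fold (-0.73, adjusted p = 0.0143). HNRNPUL2, a relative of HNRNPU, had 9.30, 8.78 and 6.52 RPKM in empty vector and 7.13, 9.35 and 8.30 RPKM in the libraries labelled hPRM1, which overlap (0.02 ± 0.22), and was called higher after rescaling at 2.26. The intronless HNRNPA1L2, a copy of HNRNPA1, was the other gene not called, at 0.785 to 2.03 RPKM in empty vector and 0.190 to 1.503 RPKM in the libraries labelled hPRM1. HNRNPC to HNRNPK stood at 0.970 to 1.16 in empty vector, 0.934 to 2.43 in hPRM2 and 0.178 to 0.231 in the libraries labelled hPRM1. The 209 pseudogenes of these families took few reads: only 2 of them were tested, of which 1 was called lower.

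**Figure D2:**
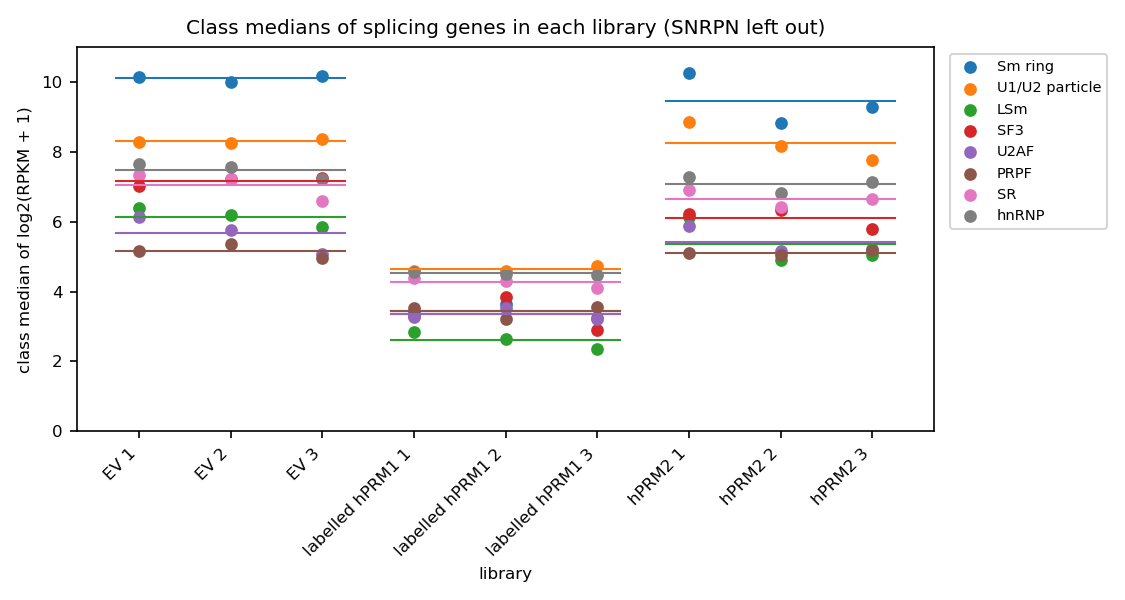
Class medians of log2(RPKM + 1) in each of the 9 libraries, without SNRPN, with a horizontal line for the mean of each group. The Sm ring is the highest class in all 6 empty vector and hPRM2 libraries, at 8.83 to 10.3, and lies at 3.24 to 3.65 in the libraries labelled hPRM1, below the U1 and U2 proteins, the SR genes and the hnRNP genes.

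The order of the classes was thus different inside the libraries labelled hPRM1. On the log2 scale, the hnRNP median minus the Sm ring median was -2.95 to -2.43 in empty vector and -2.99 to -2.02 in hPRM2. It was 0.86 to 1.24 in the libraries labelled hPRM1, where all 3 libraries had the hnRNP genes above the ring. The LSm median stayed below the Sm ring throughout, with differences of -4.31 to -3.77 in empty vector, -4.21 to -3.94 in hPRM2 and -1.0125 to -0.54 in the libraries labelled hPRM1.

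Genes of the same machinery that the name rule leaves out were mostly lower too on the deposited scale, but the direction of several of these lists depends on the scaling. The counts on the deposited scale stand beside the 62.5% of all genes called lower. Of 18 further proteins of the tri-snRNP and the U particles, 16 were called lower and none higher (median -2.08). Among these, PHF5A of SF3B differed most (-4.49) and DDX46, the helicase that works with U2, least (-0.59, not called). Of 22 genes of the Prp19 complex, catalytic step and release, 19 were lower (median -2.43), with BCAS2 at -5.33 and SYF2 at 0.21, the latter not called. Of 19 genes of snRNP assembly, cap and transport, 18 were lower (median -3.01), with COPRS at -5.14 and SMN2, whose reads may be shared with SMN1, at -1.38 and not called. The exon junction complex had 8 of 9 genes lower (median -2.84), with MAGOHB at -4.40 and CASC3 at -0.33. The minor spliceosome had 5 of 10 genes lower (median -1.47; ZCRB1 at -4.13, ARMC7 at 0.67), and SR protein kinases and import had 3 of 7 lower (median -0.99; SRPK1 at -2.95, SRPK2 at 0.59). The LSm partners in decapping and histone RNA processing had 8 of 9 tested genes lower (median -1.90), from SLBP at -3.12 to DDX6 at -0.92, which missed the 2-fold threshold. With median-of-ratios rescaling the median of the assembly, cap and transport list was -1.001 and that of the exon junction complex -0.44, whereas those of the tri-snRNP, minor spliceosome, kinase and import, and other regulator lists turned positive, at 0.29, 0.88, 1.23 and 1.18. With this rescaling 25.1% of all genes were called lower and 32.6% higher, and the rescaled counts of the lists stand beside these shares. The rescaled calls were 5 lower and 3 higher for the tri-snRNP list, 8 and 5 for the Prp19 list, 9 and 0 for assembly, 2 and 2 for the exon junction complex, 2 and 4 for the minor spliceosome, 0 and 4 for kinases and import, and 0 and 2 for the LSm partners.

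Of 28 other splicing regulators, 17 were lower and 1 higher (median -1.26), a share of lower calls close to that of all genes. With median-of-ratios rescaling 2 were lower and 15 higher, against 25.1% and 32.6% of all genes. RBFOX2, which binds introns near alternative exons, had 34.0, 60.1 and 29.3 RPKM in empty vector. In the libraries labelled hPRM1 it had at most 0.0511 RPKM. It passed the filter on low values only through empty vector, so its direction was fixed by it. Which other genes of the lists outside the name rule did so is not given here. CELF2, a regulator known from muscle, brain and T cells, had 1.84, 3.78 and 2.16 RPKM in empty vector and 36.8, 71.2 and 58.6 RPKM in the libraries labelled hPRM1 (3.96 ± 0.33, adjusted p = 5.21e-05). White blood cell markers such as PTPRC, at 96.8 to 149 RPKM in those libraries and at most 0.0280 elsewhere, moved with it, and their part was not tested.

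In the hPRM2 libraries, which carry the protamine transcript named by their label, a single splicing gene was called against empty vector. Of the 84 members tested, 0 were called lower and 1 higher, against 1.37% and 1.36% of all 13126 genes tested. At an unadjusted p under 0.05 there were 16 members, against 25.5% of all genes, and with tests of each gene alone, on log2 values or on RPKM, 0 members were called. The members' median was -0.40 and that of all tested genes -0.72, and both depend on the scaling (0.16 and -0.20 with median-of-ratios rescaling, where 0 members were called lower and 1 higher, against 0.442% and 1.63% of all genes). In 21 members every hPRM2 library was below every empty vector library, against 29.9% of all genes, and in 8 members every one was above, against 6.01%. A miss of the threshold does not show that levels were equal, since hPRM2 had the largest spread.

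The called gene was HNRNPUL1, an RNA-binding relative of HNRNPU. It had 207, 174 and 239 RPKM in empty vector and 842, 1011 and 717 RPKM in hPRM2, a difference of 2.05 ± 0.27 (adjusted p = 0.0226). Every hPRM2 value was above every empty vector value, and the call held with median-of-ratios rescaling at 2.61. In the libraries labelled hPRM1 it was at 25.9 to 42.0 RPKM. The call did not survive leaving out any library except hPRM2 replicate 1: the adjusted p was between 0.0517 and 0.115 without any of the other 5, and 0.00933 without that one. It was also lost with the replicate block (adjusted p = 0.0900). Its relative HNRNPUL2 had 8.48, 3.63 and 4.50 RPKM in hPRM2, and HNRNPU, which is itself tied to chromatin and RNA in the nuclear scaffold, had 44.1, 125 and 86.4 RPKM against 38.4, 34.1 and 27.9 RPKM (1.21 ± 0.47, adjusted p = 0.168).

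The 3 marker genes were not called in hPRM2. SF3B1 had 25.7, 33.0 and 25.2 RPKM, below every empty vector value, and differed by -0.39 ± 0.36 (adjusted p = 0.507). SNRPD1 had 1232, 454 and 616 RPKM and HNRNPA1 had 933, 286 and 352 RPKM, so that in both genes replicate 1 lay within or above the empty vector range and the other two lay below it. HNRNPA1 differed by -0.19 ± 0.46 and SNRPD1 by -0.61 ± 0.39. The Sm genes went in different directions without being called: SNRPF was at 0.62 ± 0.33 and SNRPB at -1.03 ± 0.38 (adjusted p = 0.155). SNRPE to SNRPB stood at 2.79, 4.18 and 3.01 in hPRM2 and at 0.989 to 1.25 in empty vector, and these do not overlap.

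The extremes of the other classes in hPRM2 were not called either. LSM6 had the lowest difference of all members, with 6.005, 3.56 and 23.0 RPKM against 68.2, 45.6 and 50.2 RPKM (-2.58 ± 0.68, adjusted p = 0.086). LSM8, the protein that closes the U6 ring, had 16.8, 27.9 and 32.3 RPKM against 83.6, 72.4 and 71.2 RPKM (-1.57 ± 0.39, adjusted p = 0.0779). LSM3 was at 0.49 ± 0.38, the highest of the class. U2AF1L4 was at -1.85 ± 0.60 and U2AF1 at 0.35 ± 1.20. PRPF40B and PRPF19, the ubiquitin ligase of the Prp19 complex, were at -1.85 ± 0.88 and 1.04 ± 0.59, and PRPF31 was listed at 0 in replicate 1 and had 175 and 28.6 RPKM in the others. SRSF11 and SRSF8 were at -1.08 ± 0.36 and 0.97 ± 0.44, HNRNPF at -1.27 ± 0.43, SF3A1 and SF3A2 at -0.94 and 0.32, and SNRPA and SNRPC at -0.72 and 0.32. LSM6, LSM8, U2AF1L4, SRSF11, HNRNPF, SF3A1 and SNRPA were below empty vector in every library, and SRSF8 and LSM3 were above it.

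Replicate 1 of hPRM2 stood apart in several classes, and its whole library also lay higher on the deposited scale. The median-of-ratios factors were 1.72, 1.18 and 1.44 for replicates 1, 2 and 3. Replicate 1 held the highest of the 3 hPRM2 values in 42 of the 84 tested members and the lowest in 28. Replicate 2 held the lowest in 35, and the shares over all genes are not given here. The median signed difference of replicate 1 from replicate 2 on the log2 scale was 0.77 for the Sm ring, 0.69 for the U1 and U2 proteins and 0.62 for LSm and SR genes. It was 0.04 for hnRNP genes, -0.10 for SF3, -0.44 for U2AF and -0.63 for PRPF genes. From replicate 3 it was 0.98 for the Sm ring, 0.51 for the U1 and U2 proteins, 0.43 for SR and 0.34 for hnRNP genes. It was 0.26 for LSm, 0.03 for SF3, -0.38 for U2AF and -0.40 for PRPF genes. Opposite shifts of single genes cancel in such medians. Between replicates 2 and 3 no class median was larger in size than the -0.23 of LSm and PRPF genes. For hnRNP genes it was -0.15, which is larger in size than the 0.04 between replicates 1 and 2. Without replicate 1, 10 of the 84 members were called lower and 2 higher, against 12.3% and 6.17% of all genes. Neither share of the members exceeds that of all genes, so these calls do not set the members apart. The 10 were LSM14A (-2.15), HNRNPF (-1.63), LSM14B (-1.60), PRPF8 (-1.50), SNRPB (-1.43), LSM8 (-1.30), LSM2 (-1.21), SRSF2 (-1.09), HNRNPAB (-1.03) and SNRPD1 (-1.01), and the 2 were HNRNPUL1 (2.05) and HNRNPU (1.62). The spread is then estimated from the 3 empty vector and the remaining 2 hPRM2 libraries. In a fit of all 9 libraries, LSM6, U2AF1L4, LSM10, LSM8, LSM1 and SRSF11 were called lower (12.3% of all genes) and HNRNPUL1 higher (3.86% of all genes). Both shares of the 84 members lie below those of all genes.

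The protein groups outside the name rule had no called gene in hPRM2 in any of the 8 lists. Their medians ran from -1.06 for the LSm partners in decapping and histone RNA processing to 0.22 for the exon junction complex. With median-of-ratios rescaling 1 gene each of the tri-snRNP and other regulator lists was called higher, against 1.63% of all genes.

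A direct comparison of the libraries labelled hPRM1 with hPRM2 called 63 of 83 tested members lower and 1 higher, against 37% and 16% of all 11756 genes tested. The higher one, SNRPN, was listed at 0 in hPRM2 and again passed the filter only through the libraries labelled hPRM1. LSM3, SRSF12 and HNRNPA1L3, counted as lower, passed it only through hPRM2. The median was -2.52 over the members and -0.97 over all genes. The class medians were -5.45 for the Sm ring (-6.03 without SNRPN), -3.48 for the U1 and U2 proteins, -2.83 for LSm, -2.60 for SR, -2.41 for SF3, -2.31 for U2AF and hnRNP genes and -1.49 for PRPF genes. With median-of-ratios rescaling 23 were lower (18.5% of all genes) and 6 higher (30.8% of all genes), and the medians were -0.63 over the members and 0.55 over all genes. HNRNPUL1 had the widest gap of the hnRNP class, at -4.74, and SRSF5 (-0.43 ± 0.45) and HNRNPUL2 (0.57 ± 0.42) did not pass the test here either, though both were called higher after rescaling, at 1.49 and 2.32. Both comparisons with empty vector share its 3 libraries, and the haemoglobin and white cell markers moved with this one too.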

How the data were processed

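RNA of 9 libraries, HEK293T by their labels, was measured, 3 each labelled empty vector, hPRM1 and hPRM2. The authors made the RPKM values with nf-core/rnaseq (FastQC, Cutadapt, STAR and Salmon, on hg38 per the labels, versions not given in the sources used here), removed mitochondrial genes, divided each count by gene length and by library total, and deposited one table of RPKM values without counts. Dividing by gene length raises short genes in 3′-end data, and a group of very abundant transcripts lowers all other values of its library.

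Symbols came from a table of gene names (71.7% of identifiers), with 1 member, U2AF1L5, named from GENCODE 29. A gene entered a comparison when 3 or more of its 6 libraries reached an RPKM of 1, and was tested on log2(RPKM + 1) in R 4.3.3 with limma 3.58.1 (robust eBayes with a trend). P-values were adjusted after Benjamini and Hochberg over every gene tested. Calls needed an adjusted p of at most 0.05 and a 2-fold change. Fold changes on this scale understate those of low genes. Depth was estimated from the most frequent value after scaling by length, so intervals from counts are not given. The limma fit was tested on simulated data. Tables and plots used Python 3.11.15, pandas 2.3.3, numpy 2.4.6, SciPy 1.17.1 and matplotlib 3.10.9.

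The members, classes and lists were chosen with earlier results of these data known. Genes were named by a rule: SF3B1, SNRPD1 and HNRNPA1, the lowest and highest member of each class in each comparison with empty vector, the 3 with the highest empty vector means, members called against most, members called in hPRM2, and the extremes of the 8 other lists. Other genes named here were chosen after their values were seen. As alternatives, the libraries were rescaled (median of ratios or quantile), the pseudocount was set to 0.1 or 5, the filter was dropped or raised to an RPKM of 10, the fold threshold was dropped, all 9 libraries were fitted together, the replicate number was fitted as a block, single replicates were removed, and Welch's test replaced limma on either scale. Promoter sequences are from RefSeq. Splice junctions and isoforms were not analysed here.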

Additional observations from a re-analysis of the deposited data

Results flagged for a closer look

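The effects of the libraries labelled hPRM1 and of hPRM2 differed by the direct limma comparison of both groups for 63 splicing genes that were lower in the former and 1 that was higher, against 37% and 16% of all genes. With median-of-ratios rescaling 23 were lower (18.5% of all genes) and 6 higher (30.8% of all genes). PRPF8 was then at 0.49, SF3B1 at -0.24 and SRSF8 at -0.0083, none of them called. Differences are on the log2(RPKM + 1) scale, the libraries labelled hPRM1 minus hPRM2. In the Sm ring they were -8.36 for SNRPE, -6.69 for SNRPD2, -6.03 for SNRPD1, -4.88 for SNRPF and -2.65 for SNRPB, and the fitted value of SNRPN, which was listed at 0 in hPRM2 and so has no fold, was 4.33. The other U1 and U2 proteins were at -4.27 (SNRPC), -4.19 (SNRPA1), -2.77 (SNRPB2) and -2.76 (SNRPA). LSM5 was at -6.56 and LSM3, which passed the filter only through hPRM2, at -5.31. In SF3, SF3B6 was at -6.33, SF3A2 at -2.41 and SF3B1 at -2.02. U2AF1L5 was at -2.62 and U2AF1 at -2.52, PRPF19 at -2.63 and PRPF8 at -1.45. SRSF7 was at -4.17 and SRSF8 at -1.79, HNRNPUL1 at -4.74, HNRNPAB at -4.21 and HNRNPA1 at -3.04. The haemoglobin and white cell markers and the library numbers moved with this comparison, and their part in it was not tested.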

How the results depend on the processing

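For the libraries labelled hPRM1 against empty vector, 78 splicing genes were called as reported, 39 with median-of-ratios rescaling, 47 with quantile normalization, and 54 to 79 under the other alternatives (75 to 79 when a replicate was left out, 78 with the replicate block). For hPRM2 against empty vector the 1 call became 0 with the Welch test on log2 values, the Welch test on RPKM and the replicate block, 7 with all 9 libraries in the fit, and 0 to 12 when a replicate was left out, the 12 without hPRM2 replicate 1. For the libraries labelled hPRM1 against hPRM2 the 64 calls became 29 with median-of-ratios rescaling and 39 with quantile normalization. They became 3 with the Welch test on RPKM, 57 to 67 when a replicate was left out and 62 with the replicate block. With quantile normalization 2592 of all 11756 genes tested there were called lower and 3081 higher. Where no share of all genes is given, these counts do not tell a change in the splicing genes from one in all genes. Whether the replicate numbers pair the samples was not settled. Deviations from the group means correlated at -0.0806 to 0.105 for same-numbered libraries and at -0.119 to 0.115 for the others. With 3 libraries a group this cannot exclude pairing, so the block shows only what a shared number does.

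Some named genes changed direction. In the libraries labelled hPRM1, with median-of-ratios rescaling, SRSF5 was at 2.37, PRPF38B at 1.79, U2AF1L4 at 1.73, SRSF8 at 1.43, SRSF11 at 1.23, LSM14B at 1.22, PRPF19 at 0.73, SF3A1 at 0.61, SF3A2 at 0.27, U2AF1L5 at 0.20, U2AF1 at 0.12 and HNRNPF at 0.0109. With quantile normalization SRSF5 was at 1.75, U2AF1L4 at 1.10, PRPF38B at 1.06, SRSF8 at 0.86, SRSF11 at 0.72, LSM14B at 0.64 and PRPF19 at 0.0503. When a replicate was left out, SRSF5 ranged from -0.41 to 0.22 and HNRNPUL2 from -0.12 to 0.11. In hPRM2, with median-of-ratios rescaling, SF3B6 was at 0.45, SRSF7 at 0.39, HNRNPA1 at 0.38, SNRPB2 and SF3B1 at 0.16 and SNRPA1 at 0.0108, and with quantile normalization SNRPD2 was at -0.36 and U2AF1L5 at -0.17. When a replicate was left out there, U2AF1 ranged from -1.16 to 1.31, LSM5 from -0.40 to 0.50, PRPF38B from -0.0775 to 0.73, SNRPB2 from -0.89 to 0.0903, HNRNPA1 from -0.70 to 0.15 and SRSF7 from -0.65 to 0.16. Of 487 values computed under alternatives for 35 named genes in the first comparison, 438 kept their direction and call, as did 445 of 474 for 34 genes in hPRM2. The cause of these changes was not tested. The estimated 1270000 to 2640000 reads on genes of the hPRM2 libraries, if right, would limit low genes there. The low RPKM of most members limits their values in the libraries labelled hPRM1.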
